A study of Rattus norvegicus with 9 samples.

Results

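Collagens are the main structural proteins of the extracellular matrix, and the genes described here are the protein-coding collagen chains of the rat, named Col followed by the number of the collagen type and of its alpha chain. They were chosen by that pattern of the symbol, and Col2a1 and Col10a1 were left aside. The choice gave 41 of the 35360 genes in the deposited table. By the build of the protein they form, 10 are fibrillar, 6 belong to type IV of basement membranes, 9 are FACIT collagens, which sit on the surface of fibrils, and 16 are of other kinds, such as the beaded filaments of type VI, anchoring type VII, the network-forming type VIII, and types that span the cell membrane.

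RNA came from the middle of femoral fractures in rats. Every fracture received a gel, and the groups differed in what it carried. Gel was the gel alone and served as the control. ALN gel carried a bisphosphonate abbreviated ALN, and Mg-ALN gel carried a metal-organic framework material made from magnesium and ALN. Each group had 3 libraries, numbered 1 to 3. The design text asks whether magnesium counters a fibrosis of bone that it attributes to ALN, and collagens are the proteins that fibrous tissue and bone matrix share. The labels used here give no strain, sex, age, dose or time after fracture, and do not say whether the libraries of a group came from separate animals, so a p-value measures only the spread among these samples, and some of that may be technical.

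A collagen molecule is a helix of 3 alpha chains, which may be copies of one chain or products of several genes. Chains are hydroxylated and folded in the endoplasmic reticulum, trimmed by proteases after secretion and crosslinked by lysyl oxidases. Fibrillar types I, III and V are among the collagens of the callus and of the bone that replaces it. Type I is dominant in bone and type III frequent in early repair tissue. Type IV lies under endothelium and around muscle fibres and nerves, and osteoclasts remove collagen from bone with the protease encoded by Ctsk. Bisphosphonates bind to bone mineral and act on osteoclasts.

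Libraries held 13388689 to 18763270 counts each. Within a group they differed widely, with a biological coefficient of variation of 51.4% over all genes. All 7 osteoblast markers of the list were detected in every library. Skeletal muscle markers summed to 10240 CPM (counts scaled to the size of the library) in Gel library 3, 2252 in ALN gel library 1 and 1329 in ALN gel library 3, against at most 228 in the other 6. Mitochondrially encoded genes took 39.5% of the counts in ALN gel library 1 and 31.6% in Mg-ALN gel library 3, against 4.16% to 17.5% in the others. ALN gel library 1 stood apart in its collagens too, as the values below show. In bulk tissue, fewer cells of a type and less RNA per cell cannot be told apart.

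Summed over the family, the collagens took a smaller share of the counts in every ALN gel library than in any Gel library. Their summed counts made up 11.8%, 8.06% and 9.51% of all gene counts in Gel libraries 1 to 3. In ALN gel the shares were 1.18%, 3.54% and 7.36%. In Mg-ALN gel they were 5.25%, 7.64% and 5.24%. The Gel libraries lay above all others, while ALN gel and Mg-ALN gel overlapped because ALN gel library 3 lay within the Mg-ALN gel range. The means were 9.78% ± 1.87 (SD, n = 3) in Gel, 4.03% ± 3.12 in ALN gel, and Mg-ALN gel averaged 6.04% ± 1.38. With mitochondrially encoded genes left out of the total, ALN gel (1.96% to 7.97%) still lay below Gel (8.52% to 14.3%), and the highest Mg-ALN gel library, at 8.54%, reached the lowest Gel library. The sum was mostly fibrillar, and Col1a1 alone held 44.8% to 83.1% of the collagen counts of a library. Fibrillar shares were 6.93% to 11.3% in Gel and 1.04% to 6.18% in ALN gel. The other classes were not set apart in this way. ALN gel library 3 lay above every Gel library in type IV (0.373% against at most 0.350%) and other collagens (0.562% against at most 0.434%). FACIT shares overlapped. With 3 libraries against 3, an exact permutation test cannot give a p under 0.1, and none was run on these shares.

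**Figure D1:**
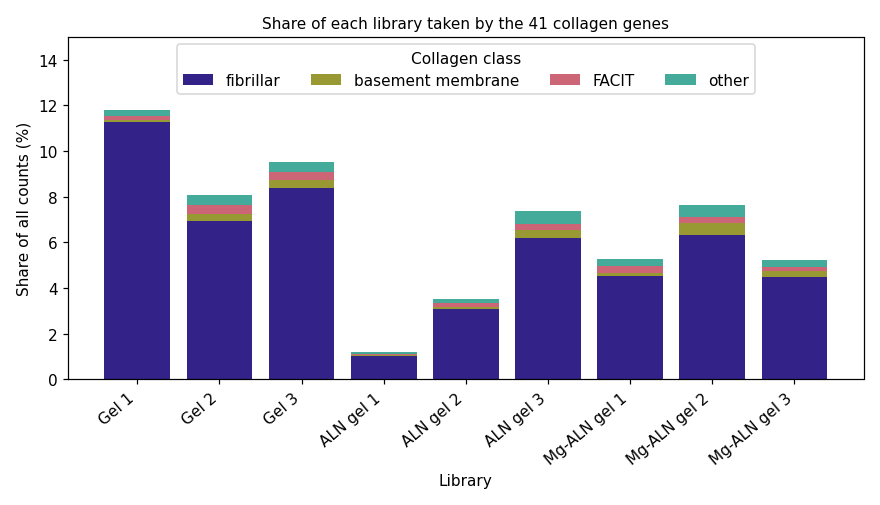
Percent of all gene counts taken by the 4 collagen classes in each of the 9 libraries (stacked bars from 0, one bar per library, grouped by gel). Fibrillar collagens made up most of every bar, and the ALN gel bars reached 1.18% to 7.36% against 8.06% to 11.8% in Gel. Col1a1 alone held 44.8% to 83.1% of the collagen counts of a library.

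Levels of different genes were compared as FPKM, which divides counts by gene length. Averaged over all 9 libraries, Col1a1 stood at 6289 FPKM and Col3a1 at 2543, followed by Col1a2 at 602, Col6a2 at 379, Col6a1 at 305, Col5a2 at 257 and Col4a1 at 247. In all, 11 collagens averaged at least 100 FPKM, and 15 averaged under 1 FPKM. Col1a1 was above Col3a1 in every library, by amounts that differed widely. Col1a1 took 40.5% to 80.8% of the summed collagen FPKM, with the highest share in Gel library 1 and the lowest in ALN gel library 3. Col3a1 took 6.27% in Gel library 1 and 35.6% in Mg-ALN gel library 1. Within a library and per kilobase, Col1a1 exceeded Col3a1 by 12.9-fold in Gel library 1 and 9.5-fold in ALN gel library 1. The other 7 libraries ranged from 1.2-fold in Mg-ALN gel library 1 to 2.79-fold in ALN gel library 2. Gel library 1 and ALN gel library 1 also had the highest summed osteoblast markers, 7241 and 5348 CPM, against 270 to 2700 in the others, and the part of cell makeup in this ratio was not tested.

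**Figure D2:**
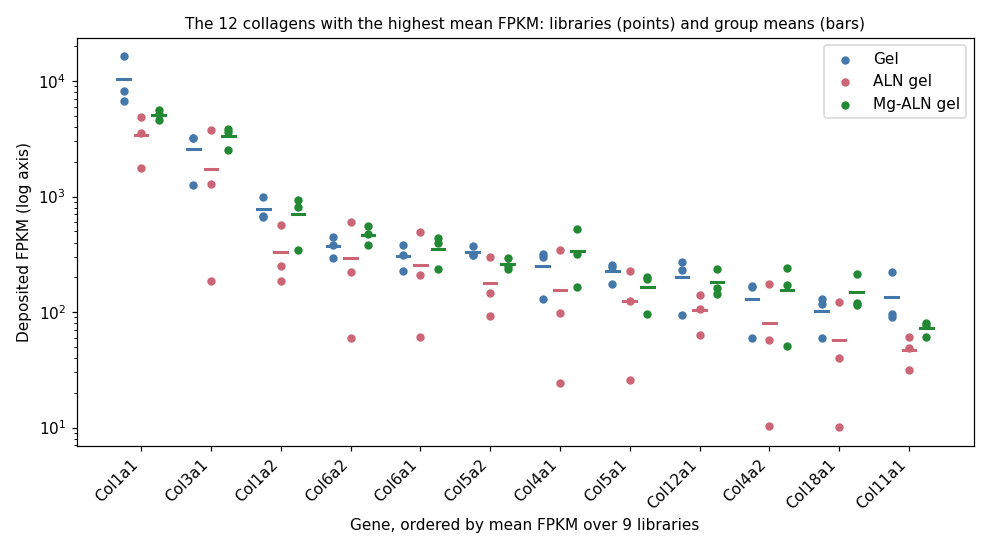
Deposited FPKM of the 12 collagens with the highest mean level, on a log axis, with 1 point per library, bars at the group means and colours for the gels, ordered by mean over all 9 libraries. Col1a1 leads with a mean of 6289 FPKM and Col3a1 follows with 2543.

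Expression of 34 collagens was high enough to be tested: all 10 fibrillar members, 4 of type IV, 8 FACIT members and 12 of the other kinds. The 7 that were too low were Col4a3, Col4a6, Col19a1, Col6a6, Col23a1, Col26a1 and Col28a1, and the highest of them in any library was Col26a1 at 7.02 CPM (89 counts) in Mg-ALN gel library 1. The filter asks for a minimal count in as many libraries as a group has, so a gene can pass through 1 group alone. By edgeR's quasi-likelihood test with Benjamini-Hochberg adjustment over all 15460 tested genes, no collagen passed 0.05 in any comparison, nor did any gene (0% of those tested). The lowest adjusted p of a collagen was 0.528 for ALN gel against Gel, 0.496 for Mg-ALN gel against ALN gel, 0.530 for Mg-ALN gel against Gel and 0.526 for any difference among the 3 groups. The values below are therefore descriptions of how these libraries lay, with the fold changes and standard errors (SE) of that fit.

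The first comparison, ALN gel against Gel, bears on the bisphosphonate in the gel. Here 29 of the 34 tested collagens had a negative log2 fold change, against 50.2% of all tested genes, and their median was −0.65 against −0.00 for all genes. Negative values were found for 9 of 10 fibrillar, 3 of 4 type IV, 7 of 8 FACIT and 10 of 12 other collagens, with medians of −1.09, −0.54, −0.43 and −0.30. In 4 collagens, all fibrillar, the 3 ALN gel libraries lay below the 3 Gel libraries (5.03% of all tested genes did so). These were Col1a1, Col1a2, Col5a2 and Col11a1. Only Col27a1 had its ALN gel libraries all above Gel (11.1% of all tested genes). An unadjusted p under 0.05 was reached by Col1a1 and Col11a1, both lower (2.42% of all tested genes). DESeq2, run as another tool, called these same 2 collagens lower in ALN gel (0.959% of the genes it could adjust), and limma-voom with sample weights called none (1.70% of all tested genes). Without ALN gel library 1 the median of the tested collagens was −0.44 (37 tested), and without ALN gel library 3 it was −1.43 (35 tested). Each such fit filtered genes anew, so its members differ somewhat. Leaving out 1 library at a time, the type IV median ran from −1.49 (without ALN gel library 3) to −0.10 (without library 1), and that of other collagens reached −1.22 without ALN gel library 3. The FACIT median turned to 0.39 without Gel library 3.

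The next one, of Mg-ALN gel with ALN gel, bears on magnesium together with the framework material that holds it. The groups do not allow these to be told apart, and the labels give no dose. Here 24 of 34 collagens had a positive log2 fold change, against 46.4% of all tested genes, with a median of 0.53 against −0.04. Positive values were found for 9 of 10 fibrillar, 3 of 4 type IV, 3 of 8 FACIT and 9 of 12 other collagens. The medians were 0.59, 0.59, −0.64 and 0.64. The positive FACIT members were Col12a1, Col16a1 and Col14a1, the 3 highest of the class by FPKM. The negative ones were Col22a1 and the low-count Col20a1, Col9a1, Col9a2 and Col9a3. All 3 Mg-ALN gel libraries lay above ALN gel in Col11a1, Col12a1, Col16a1 and Col7a1 (6.76% of all tested genes), and all lay below it in Col9a3 (9.77%). The unadjusted p was under 0.05 for Col7a1, higher (3.76% of all tested genes), and Col9a3, lower (5.43%). DESeq2 and limma-voom called no collagen (1.22% and 0.0129% of the genes they tested). This comparison and the first share the ALN gel libraries, so a low ALN gel library lowers the one and raises the other. Without ALN gel library 1 the median was 0.22 (37 tested), and without ALN gel library 3 it was 1.08 (35 tested).

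Mg-ALN gel against Gel spans the whole difference from the control. Negative log2 fold changes were found for 21 of 34 collagens, against 52.2% of all tested genes, with a median of −0.16 against −0.03. By class, 7 of 10 fibrillar, 2 of 4 type IV, 7 of 8 FACIT and 5 of 12 other collagens were negative. The medians were −0.36, 0.09, −0.66 and 0.29. The FACIT members highest by FPKM lay nearer 0, Col12a1 at −0.13, Col16a1 at 0.34 and Col14a1 at −0.04. Apart from Col22a1, the rest of that class had few counts. The median of all tested collagens turned to 0.048 without Gel library 3 and came to −0.00041 without Mg-ALN gel library 3. Each of these fits filtered genes anew and tested 37 collagens. The fibrillar median was −0.012 without Mg-ALN gel library 1. Col1a1, Col5a2, Col11a1 and Col8a1 had all Mg-ALN gel libraries below Gel (8.56% of all tested genes), and Col7a1 and Col17a1 had all of them above (9.76%). The unadjusted p was under 0.05 for Col9a1, Col9a3 and Col22a1, all lower (3.88%). DESeq2 and limma-voom called no collagen here (0.332% and 0% of the genes they tested). In the joint test of the 3 groups, DESeq2 and limma-voom again called no collagen (1.71% and 0.0776% of the genes they tested).

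**Figure D3:**
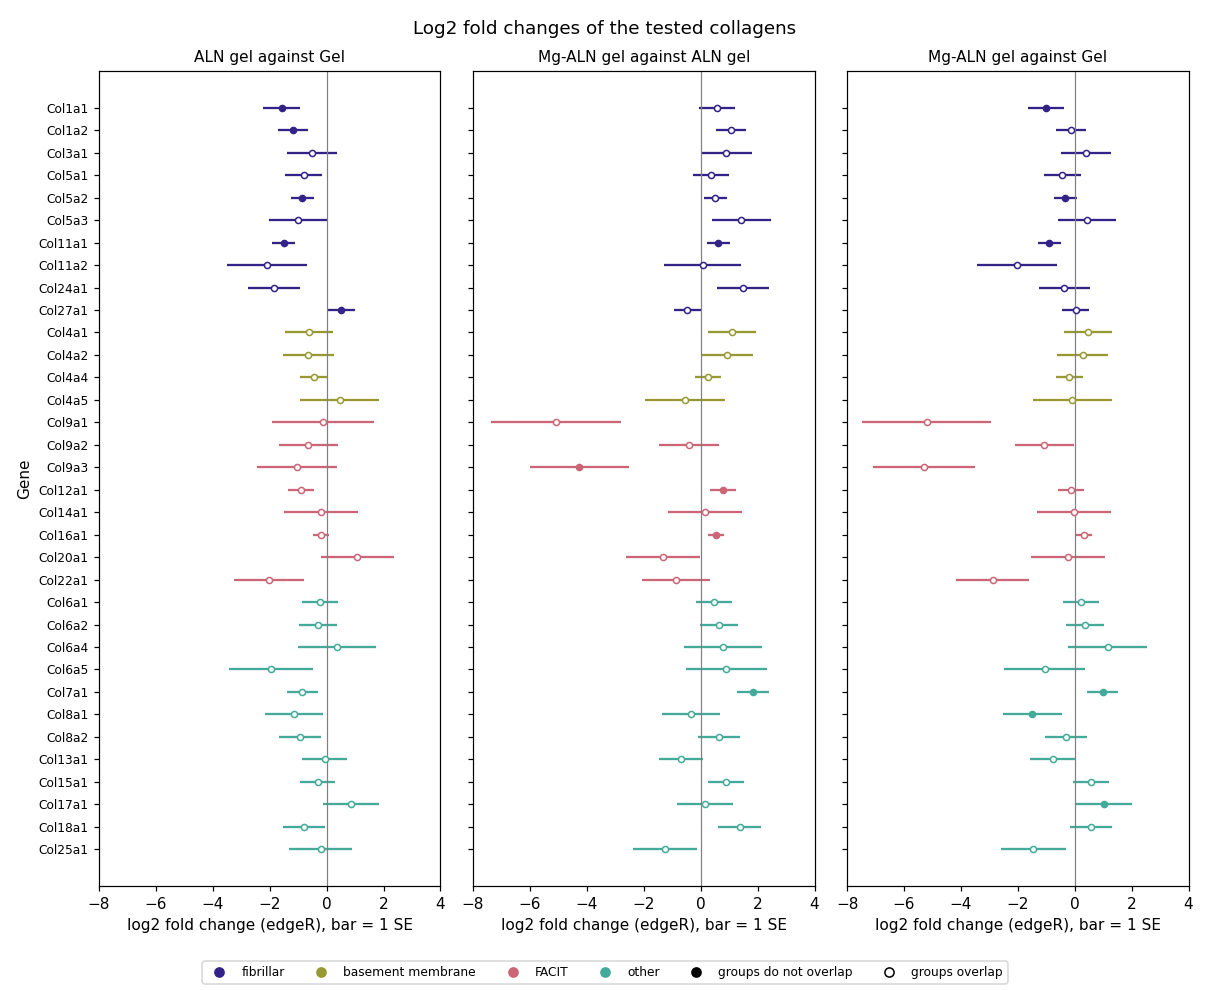
edgeR log2 fold changes with SE of the 34 tested collagens, coloured and ordered by class, in the 3 comparisons of gels, filled where the groups do not overlap. Most values lie left of 0 for ALN gel against Gel (29 of 34) and right of it for Mg-ALN gel against ALN gel (24 of 34), and no collagen passed an adjusted p of 0.05.

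Single libraries stood at the ends of many of these ranges. ALN gel library 1 held the lowest CPM of all 9 libraries in 20 of the 34 tested collagens, while it was lowest in 15.1% of all tested genes. These were 7 of 10 fibrillar members, 3 of 4 type IV, 3 of 8 FACIT and 7 of 12 others. Gel library 1 was the highest in 8 collagens (14.1% of all tested genes): Col1a1, Col5a2, Col11a1, Col11a2, Col24a1, Col22a1, Col13a1 and Col25a1. ALN gel library 3, by contrast, was the highest in 6 (8.16% of all tested genes) and the lowest in none (4.81%).

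**Figure D4:**
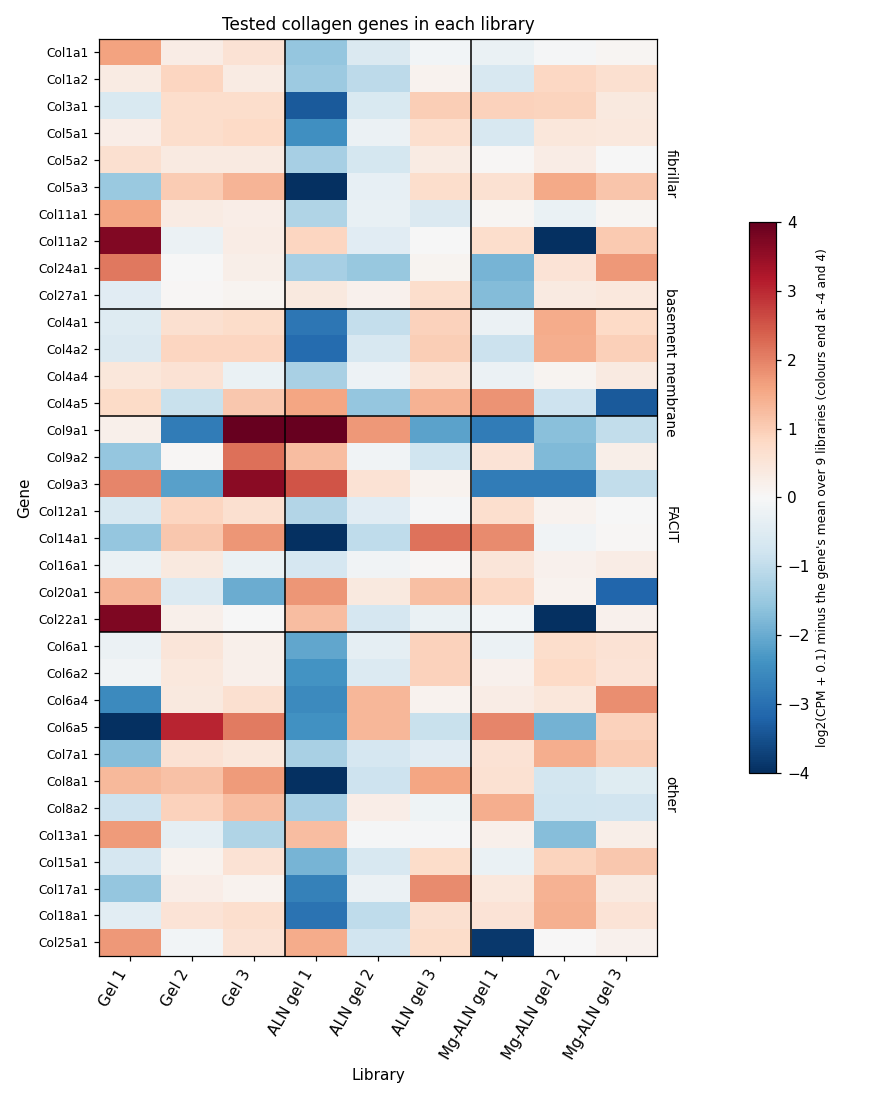
Heat map of log2(CPM + 0.1) of the 34 tested collagens in the 9 libraries, each row centred on its own mean, with lines between gels and between classes. ALN gel library 1 holds the lowest value in 20 rows, and Gel library 1 the highest in 8.

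Type I collagen, the main protein of bone, is built from chains of Col1a1 and Col1a2. Col1a1 (ENSRNOG00000003897, chromosome 10, 82745801 to 82762789 in the deposited annotation) stood at 97454, 38606 and 47262 CPM in Gel, 10756, 21141 and 29177 in ALN gel, with 26548, 30834 and 33366 in Mg-ALN gel. Every Gel library lay above every library of the other groups, and Gel library 1 had over 2 times the level of any other. The means were 61107 ± 31773 (SD, n = 3), 20358 ± 9235 and 30249 ± 3447 CPM. The log2 fold change was −1.59 (SE 0.65, edgeR adjusted p = 0.583) for ALN gel against Gel, 0.57 (SE 0.64) for Mg-ALN gel against ALN gel, while Mg-ALN gel against Gel gave −1.01 (SE 0.64). The value of Mg-ALN gel against ALN gel was 0.26 without ALN gel library 1 and 0.94 without library 3 of that group. DESeq2 gave −1.62 (SE 0.45, adjusted p = 0.0400) for the first. Without Gel library 1 the edgeR values against Gel were −1.08 (ALN gel) and −0.51 (Mg-ALN gel).

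Col1a2 (ENSRNOG00000011292, chromosome 4, 31534225 to 31569151) stood at 3040.4, 4375 and 3013 CPM in Gel, 870.3, 1152 and 2614 in ALN gel, with 1536, 4293 and 3763 in Mg-ALN gel. ALN gel lay below Gel without overlap, and Mg-ALN gel overlapped both. The log2 fold change was −1.17 (SE 0.53, edgeR adjusted p = 0.620) for ALN gel against Gel and 1.05 (SE 0.53, adjusted p = 0.581) for Mg-ALN gel against ALN gel. These were −0.88 and 0.76 without ALN gel library 1, and −1.84 and 1.67 without library 3 of that group. A second locus described as the same chain lies on chromosome 4 in the deposited annotation and held 1.94 to 29.2 CPM, so reads of Col1a2 may be divided and its level is uncertain. Type I molecules hold more alpha 1 than alpha 2 chains, a property of the protein that RNA ratios do not measure. Per kilobase, Col1a1 counts exceeded those of Col1a2 by 24.6, 6.78 and 12.1-fold in Gel and 9.49, 14.1 and 8.58-fold in ALN gel. In Mg-ALN gel they did so by 13.3, 5.52 and 6.81-fold. The groups overlapped. An exact permutation test over all groupings of the 9 libraries, two-sided, gave p = 0.539 for this ratio, where 0.00357 was the smallest p possible.

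Type III collagen is built from copies of a single chain, that of Col3a1 (ENSRNOG00000003357, chromosome 9, 52023295 to 52059217), and forms thin fibrils in young repair tissue and vessels. It stood at 6185, 15326 and 15308 CPM in Gel, 926, 6201 and 18624 in ALN gel, with 18081, 17664 and 12286 in Mg-ALN gel. ALN gel held both the lowest and the highest library, a span of 20.1-fold. The log2 fold change of −0.52 (SE 0.88) for ALN gel against Gel became 0.02 without ALN gel library 1, and that of 0.90 (SE 0.89) for Mg-ALN gel against ALN gel became 0.36 without the same library. The fibroblast and tendon markers summed to 1623 CPM in ALN gel library 1, the lowest of the 9, and 8520 in Mg-ALN gel library 1, the highest. Over the groups the sums were 3895 to 6359 CPM in Gel, 1623 to 4856 in ALN gel and 5183 to 8520 in Mg-ALN gel. Their part in the Col3a1 values was not tested.

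Types V and XI start fibrils and set their diameter, type V in type I fibrils and type XI best known from cartilage. Col5a2 stood at 1706, 1389 and 1406 CPM in Gel, 435, 667 and 1378 in ALN gel, with 1119, 1344 and 1085 in Mg-ALN gel. Both treated groups lay below Gel, with library 3 of ALN gel and library 2 of Mg-ALN gel just beneath the lowest Gel library. The log2 fold change was −0.86 (SE 0.41, edgeR adjusted p = 0.636) for ALN gel against Gel, or −0.55 without ALN gel library 1 and −1.49 without library 3 of that group. For Mg-ALN gel against Gel it was −0.34 (SE 0.40). Its partner Col5a1 overlapped between Gel (1159 to 1667 CPM) and ALN gel (178 to 1535 CPM), with a log2 fold change of −0.80 (SE 0.65), or −0.32 and −1.61 without these same libraries. Col5a3, a less common chain of type V, ranged from 118 to 842 CPM in Gel, 14.4 to 538 in ALN gel, with 507 to 955 in Mg-ALN gel.

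Col11a1 (ENSRNOG00000023148, chromosome 2, 216863428 to 217056523) was the collagen whose gels were set apart in all 3 comparisons. It stood at 1730.3, 733 and 696 CPM in Gel, 252, 474 and 385 in ALN gel, with 611, 476 and 611 in Mg-ALN gel. Gel lay highest, Mg-ALN gel between and ALN gel lowest, though library 2 of ALN gel and library 2 of Mg-ALN gel differed by little. The log2 fold change was −1.51 (SE 0.41, edgeR adjusted p = 0.528) for ALN gel against Gel, 0.61 (SE 0.40, adjusted p = 0.664) for Mg-ALN gel against ALN gel, while Mg-ALN gel against Gel gave −0.90 (SE 0.40, adjusted p = 0.530). DESeq2 gave −1.54 (SE 0.42, adjusted p = 0.0330) for the first. Without Gel library 1, the edgeR values against Gel were −0.95 and −0.34, and without ALN gel library 1 the value for Mg-ALN gel against ALN gel was 0.39. The 7 chondrocyte markers summed to 144 CPM in Gel library 1, where Col11a1 was highest, and over the groups to 79.9 to 188 CPM in Gel, 74.7 to 983 in ALN gel and 64.0 to 113 in Mg-ALN gel. Their highest sum was in ALN gel library 3, where Col11a1 was at 385 CPM, and the cartilage matrix gene Matn1 had 6 counts in Gel library 1 and 0 elsewhere. The part of cartilage in the Col11a1 values was not tested.

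The other chain of type XI and the minor fibrillar types behaved unevenly. Col11a2 stood at 689 CPM in Gel library 1 and at 0.774 to 111 CPM in the other 8 libraries. Its log2 fold change of −2.09 (SE 1.41) for ALN gel against Gel turned to 0.18 without Gel library 1. A pseudogene described as like Col11a2 held up to 180 counts in a library, so this gene's value is uncertain. Col24a1, found in developing bone, ranged from 1.73 to 28.6 CPM and was also highest in Gel library 1. Col27a1, a fibrillar type of cartilage and bone, was the exception of its class, at 37.4, 52.3 and 54.5 CPM in Gel against 67.3, 56.9 and 82.5 in ALN gel. All ALN gel libraries lay above Gel, the log2 fold change was 0.52 (SE 0.48, edgeR adjusted p = 0.835) and it was 0.31 without ALN gel library 3.

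Upstream sequence is shown for the fibrillar chains whose Gel libraries all lay above ALN gel, as RefSeq gives it for assembly GRCr8, which may not be the build of the counts. The RefSeq promoter table had no entry for Col1a1. Each line holds the 250 bases before the annotated start on the gene's strand, with motif matches in capitals: the CCAAT box, which reads ATTGG on the other strand, the GC box, searched as GGGCGG and on the other strand as CCGCCC, and the TATA box, searched as TATAAA and on the other strand as TTTATA. The windows are chr4:33518307-33518556 on the plus strand for Col1a2, chr9:55090152-55090401 on the minus strand for Col5a2 and chr2:204508886-204509135 on the plus strand for Col11a1.
Col1a2: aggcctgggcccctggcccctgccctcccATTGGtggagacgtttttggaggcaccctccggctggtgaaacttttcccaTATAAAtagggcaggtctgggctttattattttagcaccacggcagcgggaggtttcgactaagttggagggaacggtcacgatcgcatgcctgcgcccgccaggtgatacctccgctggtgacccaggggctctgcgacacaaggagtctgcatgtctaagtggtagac
Col5a2: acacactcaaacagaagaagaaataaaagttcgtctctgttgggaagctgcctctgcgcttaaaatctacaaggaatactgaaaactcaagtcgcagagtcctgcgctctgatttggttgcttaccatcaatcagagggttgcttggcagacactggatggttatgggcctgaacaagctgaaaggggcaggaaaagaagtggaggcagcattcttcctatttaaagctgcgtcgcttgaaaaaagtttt
Col11a1: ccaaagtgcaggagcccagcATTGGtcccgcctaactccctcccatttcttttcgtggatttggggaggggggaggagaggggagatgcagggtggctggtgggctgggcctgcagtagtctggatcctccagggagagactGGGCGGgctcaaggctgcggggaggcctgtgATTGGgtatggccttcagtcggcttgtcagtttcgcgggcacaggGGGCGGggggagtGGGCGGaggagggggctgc
The promoters differed in their letters although the genes lay in the same order between Gel and ALN gel. Col1a2 held 1 TATAAA and 1 CCAAT match, Col11a1 held 3 GGGCGG and 2 CCAAT matches, and Col5a2 held none of the motifs. Of the 33 collagens with an entry, 30.3% held CCAAT, 57.6% GGGCGG and 9.1% TATAAA in the table's windows, against 34.0%, 30.5% and 12.9% of all 33469 promoters. Collagens were counted once per gene and the full set once per promoter entry, so the units are not the same. None of the searched motifs contains another, and a match is a description of the sequence, not of a bound site.

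Type IV collagen forms the sheet of basement membranes, mostly from 2 chains of Col4a1 and 1 of Col4a2. Col4a1 (ENSRNOG00000016281, chromosome 16, 83522162 to 83632153) stood at 879.5, 1942 and 2107 CPM in Gel, 168, 652 and 2368 in ALN gel, with 1074, 3523 and 2169.8 in Mg-ALN gel. Col4a2 (ENSRNOG00000023972, chromosome 16, 83387364 to 83438561) stood at 303, 809 and 823 CPM in Gel, 53.1, 290.1 and 896 in ALN gel, with 248, 1222 and 871 in Mg-ALN gel. Both were lowest in ALN gel library 1 and highest in Mg-ALN gel library 2, and the groups overlapped in every comparison.

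For ALN gel against Gel the log2 fold changes were −0.63 (SE 0.84) for Col4a1 and −0.64 (SE 0.90) for Col4a2. Without ALN gel library 1 both were −0.12, and without ALN gel library 3 they were −2.06 and −1.97. For Mg-ALN gel against ALN gel they were 1.09 (SE 0.84) and 0.92 (SE 0.90), which became 0.58 and 0.39 without ALN gel library 1 and 2.47 and 2.19 without ALN gel library 3. The 6 matched endothelial markers summed to 302 CPM in ALN gel library 1, again the lowest of the 9, and 925 in Mg-ALN gel library 2, again the highest. Their ranges were 451 to 623 CPM in Gel, 302 to 651 in ALN gel and 558 to 925 in Mg-ALN gel, and their part in the type IV values was not tested.

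While each chain varied 21.0-fold (Col4a1) and 23.0-fold (Col4a2) across the libraries, their ratio per kilobase stayed between 1.69 and 3.25, a span of 1.92-fold. In RefSeq the genes lie head to head, read away from each other, with 76 bases between their starts at chr16:84885521-84885596 of GRCr8. This stretch is shown on the plus strand because both genes begin at its ends, Col4a2 to the left and Col4a1 to the right, and the capitals mark its only match to a searched motif, CCGCCC, the other strand of GGGCGG.
Col4a2 to Col4a1: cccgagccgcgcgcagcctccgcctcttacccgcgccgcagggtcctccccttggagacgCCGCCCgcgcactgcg
Of these bases, 78.9% were G or C. In the deposited annotation, whose build is not given in the sources used here, the listed ends of the genes do not lie this close.

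The other type IV chains, known from kidney, lung and inner ear, were low. Col4a4 ranged from 3.18 to 11.8 CPM and was lowest in ALN gel library 1. Col4a5 ranged from 0 to 3.47 CPM, Col4a3 had at most 22 counts in a library, and Col4a6 had 1 count in all 9 libraries together. These pairs also lie head to head in RefSeq, Col4a3 and Col4a4 with 412 bases between their starts and Col4a5 and Col4a6 with 1414. In contrast to the first pair, Col4a4 was tested and Col4a3 was too low.

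FACIT collagens join fibrils to other matrix. Col12a1, typical of tendon, periosteum and loaded tissue, was the highest of them by FPKM, at 161 over all libraries. It stood at 1026, 2874 and 2466 CPM in Gel, 703, 1159 and 1548 in ALN gel, with 2504, 1749.8 and 1564 in Mg-ALN gel. Mg-ALN gel lay above ALN gel in all libraries, by a small margin between Mg-ALN gel library 3 and ALN gel library 3, and Gel overlapped both. Its log2 fold change was −0.90 (SE 0.46, edgeR adjusted p = 0.666) for ALN gel against Gel and 0.77 (SE 0.46, adjusted p = 0.628) for Mg-ALN gel against ALN gel, with 0.51 for the latter without ALN gel library 1.

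Col16a1, found around fibrils and near cell surfaces, varied least of the collagens that had counts in every library, 2.22-fold from the lowest to the highest. It stood at 346, 545 and 344 CPM in Gel, 261, 377 and 429 in ALN gel, with 579, 466 and 515 in Mg-ALN gel. All Mg-ALN gel libraries lay above ALN gel, with a log2 fold change of 0.55 (SE 0.28, edgeR adjusted p = 0.587) that was 0.36 without ALN gel library 1. Col14a1, of tendon and skin, varied 90.1-fold, from 1.71 CPM in ALN gel library 1 to 154 in ALN gel library 3. Col22a1, of the junction of muscle and tendon, was at 115 CPM in Gel library 1 and at 0.357 to 20.5 CPM elsewhere. Its log2 fold changes against Gel, −2.02 (SE 1.23) for ALN gel and −2.89 (SE 1.27) for Mg-ALN gel, became 0.24 and −0.63 without that library.

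Type IX, which coats the fibrils of cartilage, was present in some libraries and nearly absent in others. Col9a1 had 10, 0 and 231 counts in Gel, 151, 36 and 1 in ALN gel, with 0, 2 and 4 in Mg-ALN gel. Col9a3 had 37, 1 and 136 counts in Gel, 50, 15 and 11 in ALN gel, with 0, 0 and 4 in Mg-ALN gel. Both were highest in Gel library 3 and next in ALN gel library 1, and both were at most 4 counts in Mg-ALN gel. Col9a2 was less uneven, with 7 to 126 counts in Gel, 15 to 52 in ALN gel, with 7 to 31 in Mg-ALN gel. The cartilage marker Cnmd had 150 counts in Gel library 3, 86 in ALN gel library 1 and 30 in ALN gel library 2 and none in the other 6, the same 3 libraries in which Col9a1 was highest. Other markers of the chondrocyte list lay elsewhere, since Acan, Comp, Hapln1 and Sox9 were highest in ALN gel library 3, where Col9a1 had 1 count. The part of cartilage in the sampled piece was not tested. Fold changes of type IX are not given because they rest on these few counts. The other FACIT members were low, Col20a1 at 0 to 2.95 CPM and Col19a1 at no more than 7 counts in a library.

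Type VI builds beaded filaments around cells from chains of different genes, of which Col6a1 and Col6a2 were the most abundant members outside the other 3 classes. Col6a1 stood at 718, 1177 and 960.4 CPM in Gel, 198, 654 and 1574 in ALN gel, with 718, 1370.4 and 1247 in Mg-ALN gel. Col6a2 stood at 1104, 1635 and 1405 CPM in Gel, 229.9, 835 and 2314 in ALN gel, with 1388, 2113 and 1794 in Mg-ALN gel. As with type III, ALN gel held both the lowest and the highest library of each gene.

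The log2 fold changes for ALN gel against Gel were −0.23 (SE 0.63) for Col6a1 and −0.29 (SE 0.66) for Col6a2, and they turned to 0.23 and 0.19 without ALN gel library 1. For Mg-ALN gel against ALN gel, Col6a2 had 0.65 (SE 0.66), and 0.16 without that library. Across libraries Col6a1 varied 7.95-fold and Col6a2 10.1-fold, while their ratio per kilobase stayed between 0.621 and 1.03. The later chains were uneven or rare, with Col6a5 at 0.641 to 102 CPM, Col6a4 at 0 to 2.03 CPM and Col6a6 at no more than 41 counts in a library.

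**Figure D5:**
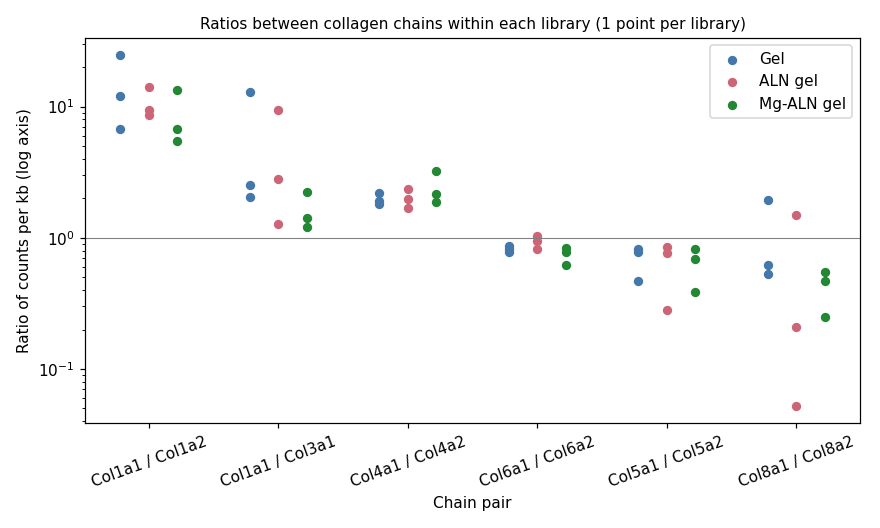
Ratios of counts per kilobase between chain pairs within each library, on a log axis, 1 point per library and coloured by gel. The ratio of Col4a1 to Col4a2 stays between 1.69 and 3.25 and that of Col6a1 to Col6a2 between 0.621 and 1.03, whereas Col8a1 to Col8a2 runs from 0.0524 to 1.94.

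Col7a1 (ENSRNOG00000020579, chromosome 8, 117694605 to 117726844), which encodes the anchoring fibril under epithelia, had the lowest adjusted p of the collagens for Mg-ALN gel against ALN gel. It stood at 2.70, 13.5 and 12.5 CPM in Gel, 3.65, 5.65 and 6.62 in ALN gel, with 13.6, 24.8 and 18.5 in Mg-ALN gel. Every Mg-ALN gel library lay above all others, although Gel library 2 came within 1 CPM of the lowest. Its log2 fold change was 1.83 (SE 0.56, edgeR adjusted p = 0.496) against ALN gel and 0.98 (SE 0.55, adjusted p = 0.575) against Gel, and the latter was 0.54 without Gel library 1. Between ALN gel and Gel it was −0.85 (SE 0.55) and the groups overlapped, with −1.29 without Gel library 1. Of the 4 keratinocyte markers, Krt5 and Krt14 were at 0 counts in all 9 libraries and Krt15 had 2 counts in all. The fourth, Dsg3, made up nearly all of their sum, which was 0.313 to 27.8 CPM in Gel, 2.40 to 15.3 in ALN gel and 14.3 to 27.4 in Mg-ALN gel. Dsg3, an adhesion protein of epithelia, had log2 fold changes of 1.17 for Mg-ALN gel against ALN gel and 1.09 for Mg-ALN gel against Gel, and its part in the Col7a1 values was not tested. Col17a1, a transmembrane collagen of epithelial anchoring, was far lower, at 0.996, 3.72 and 3.39 CPM in Gel, 0.388, 2.64 and 11.8 in ALN gel, with 4.18, 8.28 and 4.0 in Mg-ALN gel. Mg-ALN gel lay above Gel without overlap, with a log2 fold change of 1.02 (SE 0.99, edgeR adjusted p = 0.734), or 0.56 without Mg-ALN gel library 2.

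Type VIII forms networks under endothelium and in vessel walls. Col8a1 stood at 115, 105 and 152 CPM in Gel, 2.17, 26.2 and 138 in ALN gel, with 70.5, 28.1 and 33.3 in Mg-ALN gel. Mg-ALN gel lay below Gel, with a log2 fold change of −1.49 (SE 1.03, edgeR adjusted p = 0.637). Its partner Col8a2 was at 57.3, 191 and 236 CPM in Gel, 40.1, 122 and 90.1 in ALN gel, with 275, 58.0 and 58.8 in Mg-ALN gel, with −0.94 (SE 0.74) for ALN gel against Gel, or −0.60 without ALN gel library 1. Unlike types IV and VI, the chains of type VIII did not keep to one another, and their ratio varied 36.9-fold.

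Types XV and XVIII belong to the zone around basement membranes, and a fragment of type XVIII is the inhibitor of vessel growth endostatin. Col18a1 stood at 303, 590.3 and 647 CPM in Gel, 53.0, 204 and 636 in ALN gel, with 602, 1102 and 594 in Mg-ALN gel. The groups overlapped in each comparison. ALN gel library 3 lay within the range of Gel and above 2 libraries of Mg-ALN gel, and Gel library 3 also lay above these 2. Its log2 fold change was −0.79 (SE 0.74) for ALN gel against Gel and 1.36 (SE 0.75, edgeR adjusted p = 0.608) for Mg-ALN gel against ALN gel, which were −0.29 and 0.86 without ALN gel library 1 and −2.06 and 2.59 without ALN gel library 3. Col15a1 ranged from 48.4 to 113 CPM in Gel, 21.3 to 129 in ALN gel, while Mg-ALN gel reached from 63.2 to 161. Mg-ALN gel against ALN gel gave 0.89 (SE 0.63), or 0.46 without ALN gel library 1 and 1.82 without library 3 of that group. A second locus like type XV was counted apart, so reads of Col15a1 may be divided. Among the remaining transmembrane types, Col13a1 ranged from 9.77 to 106 CPM and Col25a1 from 0 to 4.77, both highest in Gel library 1.

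Genes that make, trim, bind and break down collagen were counted from lists of the pathway. None of them passed edgeR's test at an adjusted p of 0.05 in any comparison. For ALN gel against Gel, log2 fold changes were negative in 15 of 19 genes of synthesis and folding (median −0.44), 11 of 11 of processing and crosslinking (median −0.94), 11 of 12 basement membrane partners (median −0.64), 7 of 9 receptors (median −0.43), 4 of 6 fibril partners (median −0.21) and 3 of 6 of degradation (median 0.19). For Mg-ALN gel against ALN gel they were positive in 15 of 19, 9 of 11, 10 of 12, 4 of 9, 4 of 6 and 3 of 6, with medians of 0.45, 0.59, 0.67, −0.06, 0.36 and −0.34. The corresponding medians for Mg-ALN gel against Gel were −0.04, 0.07, −0.04, −0.39, 0.06 and 0.27. These comparisons share groups, as above.

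Some of the machinery lay as the fibrillar chains did. Serpinh1, the chaperone of procollagen, had a log2 fold change of −0.88 (SE 0.30) for ALN gel against Gel and 1.03 (SE 0.30) for Mg-ALN gel against ALN gel. Bmp1, which cuts the C-terminal propeptide, had −0.94 (SE 0.24) and 0.50 (SE 0.24). Pcolce, which enhances that cut, had −0.93 (SE 0.35) and 0.95 (SE 0.35), and Lox, which starts crosslinks, had −1.23 (SE 0.78) and 1.59 (SE 0.79). Other abundant genes of folding were near 0 for ALN gel against Gel, such as P4hb, a subunit of prolyl hydroxylase, at −0.02 and Ppib, a prolyl isomerase, at 0.07. Of the partners, Sparc had −0.88 (SE 0.44) and 0.67 (SE 0.43), Nid1 −1.07 (SE 0.48) and 1.01 (SE 0.47), and Lum −0.98 (SE 0.43) and 1.26 (SE 0.43). Lum was 1 of 4 negative fibril partners for ALN gel against Gel, and the other 2 of 6 were positive.

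The degrading enzymes of osteoclasts lay the other way. Ctsk had a log2 fold change of 1.61 (SE 0.76) for ALN gel against Gel and −1.16 (SE 0.75) for Mg-ALN gel against ALN gel. Mmp9 had 2.39 (SE 0.78) and −1.91 (SE 0.77), and Mmp13, a collagenase also made by hypertrophic chondrocytes and osteoblasts, had 0.96 (SE 0.47) and −1.13 (SE 0.47). The 7 osteoclast markers, which include Ctsk and Mmp9, summed to 17793, 4061 and 2061 CPM in Gel, 30864, 26698 and 20976 in ALN gel, with 3627, 10770 and 12044 in Mg-ALN gel. ALN gel lay above both other groups, and its libraries were ordered opposite to their collagen share, highest in library 1 and lowest in library 3. The other groups did not show this order. Gel library 1 was highest in both sum and share, and Mg-ALN gel library 2 had the highest share with the middle sum. The part of the makeup of cells in the collagen values was not tested.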

How the data were processed

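The deposited whole-number counts per gene, made by the authors with no normalization in the table, were the main values. The authors also deposited FPKM, which by a check equalled the count divided by gene length and by 1 constant per library, and these were used to compare genes. Upstream, per the submitters' processing notes, the tools were featureCounts 1.5.0-p3, HISAT2 2.0.5, fastp, edgeR 3.22.5, StringTie 1.3.3b and DESeq2 1.20.0, with no role stated. The genome build and the strand setting are not given in the sources used here, and per the labels' protocols the library steps name no strand marking, so genes that overlap others are uncertain. Coordinates of genes are those of the deposited table, and sequences are RefSeq's for GRCr8.

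Fits used edgeR 4.0.16, DESeq2 1.42.0 and limma 3.58.1 under R 4.3.3. After filterByExpr (15460 genes) and TMM scaling, all 9 libraries entered 1 quasi-likelihood fit with a term per group, tested two-sided with Benjamini-Hochberg adjustment over all genes at 0.05. CPM use the TMM-scaled totals, and SE is the log2 fold change over the root of F. Libraries compared in pairs by chi-square differed at no less than 72.3 per degree of freedom, so all were kept. Replicate numbers are shared by the groups, and the labels do not say what they mark. Deviations of same-numbered libraries correlated with r = 0.340, 0.417 and 0.224 between Gel and ALN gel, with 0.135, −0.122 and −0.130 for Mg-ALN gel with ALN gel, and with −0.0778, −0.0422 and −0.202 for Mg-ALN gel with Gel, so the number was a block only in an alternative.

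Named collagens were the 5 highest of each class by mean FPKM, those past the threshold, those whose groups did not overlap and whose higher group averaged 2 CPM or more, and set chain pairs. Others are named to account for every member. The pathway lists matched 143 of 152 entries together with the marker lists, and up to 3 genes of each by mean FPKM could be named. The members, lists and tests were chosen with earlier results of these data known. Alternatives were RLE scaling, no filter, DESeq2, limma-voom with sample weights, a replicate block, only the groups compared, the mitochondrial share as a covariate, limma on log2(FPKM + 0.1) and log2(FPKM + 1), and leaving libraries out. Fits that left libraries out filtered genes anew, so medians over collagens or classes can differ in members.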

Additional observations from a re-analysis of the deposited data

How the results depend on the processing

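The number of collagens called stayed at 0 in every comparison and alternative but 1: DESeq2 called 2 for ALN gel against Gel. With a replicate block no collagen was called either, and the medians for ALN gel against Gel were −1.24 for fibrillar, −0.86 for type IV, −0.31 for FACIT and −0.62 for other collagens. The Col1a1 to Col1a2 ratio had p = 0.556 in an exact permutation test within replicate numbers, and 0.246 to 0.829 with 1 library left out. Without the 2 libraries that had the most Acta1 counts (Gel library 3 and ALN gel library 3), the fibrillar median was −1.72 for ALN gel against Gel. For Mg-ALN gel against ALN gel it was 1.13, and that of other collagens was 1.65. Leaving out ALN gel library 3 alone gave −1.84, 1.12 and 1.65. ALN gel library 1, whose muscle markers summed higher than those of ALN gel library 3, was kept. Leaving out 1 library at a time, the fibrillar median was −1.84 to −0.72, the type IV median −1.49 to −0.10, the FACIT median −1.06 to 0.39 and that of other collagens −1.22 to −0.30 for ALN gel against Gel. Without Gel library 3, 11 of 37 tested collagens were positive in that comparison. For Mg-ALN gel against ALN gel the fibrillar median was 0.38 to 1.12, the median of other collagens 0.19 to 1.65 and the type IV median −0.09 to 1.49. Of the 17 collagens whose fold change for ALN gel against Gel is printed, 5 took both signs with 1 library left out: Col3a1 (−1.84 to 0.018), Col11a2 (−2.62 to 0.18), Col22a1 (−2.83 to 0.24), Col6a1 (−1.22 to 0.23) and Col6a2 (−1.43 to 0.19). Col6a1 also turned to 0.043 once the share of mitochondrial counts entered the fit. In that fit the median of all tested collagens was −0.38 for ALN gel against Gel and 0.12 for Mg-ALN gel against Gel. The type IV median for the latter lay near 0 and took both signs, from −0.22 to 0.34 with 1 library left out. A lone pair of libraries per group is assumed to vary like the other groups. The causes were not tested. Summing Col1a2 with its second locus, chosen after seeing the data, gave p = 0.546 in the exact permutation test of the ratio. Precision was limited by 3 libraries a group, and for type IX, Col4a3, Col4a6 and the other collagens under 1 FPKM also by few counts.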

Other observations

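Several loci described as collagens fell outside the symbol pattern. The largest is described as the alpha 3 chain of type VI, the partner of Col6a1 and Col6a2, and is listed as a processed transcript on chromosome 9, 97926787 to 98004546, under the symbol AABR07068316.1. It held 16785, 27138 and 25501 counts in Gel, 5855, 12040 and 41776 in ALN gel, with 16567, 26813 and 24560 in Mg-ALN gel. As in Col6a1 and Col6a2, ALN gel held both the lowest and the highest library. Its log2 fold change for ALN gel against Gel was −0.21 (SE 0.56). LOC108348074, described as like the chain of type XV, stood at 29.0, 99 and 142 CPM in Gel, 13.3, 65.8 and 82.6 in ALN gel, with 41.5, 115 and 119 in Mg-ALN gel, lowest in ALN gel library 1 like Col15a1.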
